A study of Mus musculus with 42 samples.

Results

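Endothelial cells line the blood vessels and, in a fenestrated form, the sinusoids of the liver. The 10 genes described here are markers of these cells, and they are Cdh5, Pecam1, Emcn, Vwf, Kdr, Flt1, Tek, Tie1, Stab2 and Lyve1. Every probe set annotated to 1 of these genes alone was taken, which gave 15 of the 45037 probe sets and 10 of the 18193 genes that a probe set names alone. Flt1 had 4 probe sets, Cdh5 and Lyve1 had 2 each, and the other genes had 1. No probe set named a member together with another gene, and no filter on low values removed any. Where a gene had several, the probe set with the highest mean over the 42 arrays stands for it.

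RNA was measured in the liver, the white fat (WAT) and the brown fat (BAT) of 7 VAAM mice and 7 water mice, with 1 Affymetrix mouse expression array for each tissue and mouse number. All were male ddY mice, 5 weeks old when housed. VAAM is an amino acid mixture that imitates the saliva of hornet larvae. VAAM or water was given by feeding tube at 37.5 µL per gram of body weight in 5 daily administrations, and food was withdrawn before the last one. The tissues were taken 4 hours after the last dose. The tissues were whole pieces, so that fewer endothelial cells and less of an RNA in each endothelial cell cannot be told apart, and the labels do not name the WAT depot.

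Cdh5 encodes VE-cadherin, the adhesion molecule of endothelial junctions, and Pecam1 encodes a second junction molecule that platelets and leukocytes also carry. Emcn is a sialomucin of capillary and venous endothelium, and Vwf is the clotting protein that large vessels and platelets store. Kdr and Flt1 are receptors of the VEGF family, of which Kdr carries most of the growth signal and Flt1 also acts as a decoy. Tek is the receptor of the angiopoietins and Tie1 is its partner. Stab2 is a scavenger receptor for hyaluronan and is a classical marker of the liver sinusoid. Lyve1 binds hyaluronan too and marks lymphatic vessels, liver sinusoids and some resident macrophages.

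ETS factors bind a GGAA core and drive many endothelial genes. RefSeq promoter sequences of build GRCm38.p6 were matched for 6 of the 10 members (Tek, Tie1, Kdr, Flt1, Emcn and Stab2), and the 250 bases before each start were searched on both strands for AGGAAG. The motif was found in 4 of the 6 promoters, beside 29.5% of 32851 promoters of the same length. A second motif, the GATA site AGATAA, was searched on both strands too. It was in 0 of the 6 and in 9.99% of all. A match is only a run of letters, and no binding was measured. The 4 promoters with a match are shown, with the motif, as it reads on either strand, in capitals. The windows lie at chr10:87007943-87008192 on the minus strand for Stab2, chr3:137340828-137341077 on the plus strand for Emcn, chr5:147726012-147726261 on the minus strand for Flt1 and chr4:118489850-118490099 on the minus strand for Tie1, each just upstream of the start.
Stab2: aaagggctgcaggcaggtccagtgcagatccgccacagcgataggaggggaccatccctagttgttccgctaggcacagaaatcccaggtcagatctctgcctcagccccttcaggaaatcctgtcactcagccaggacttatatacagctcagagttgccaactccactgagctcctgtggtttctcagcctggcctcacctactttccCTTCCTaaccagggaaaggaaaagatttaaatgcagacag
Emcn: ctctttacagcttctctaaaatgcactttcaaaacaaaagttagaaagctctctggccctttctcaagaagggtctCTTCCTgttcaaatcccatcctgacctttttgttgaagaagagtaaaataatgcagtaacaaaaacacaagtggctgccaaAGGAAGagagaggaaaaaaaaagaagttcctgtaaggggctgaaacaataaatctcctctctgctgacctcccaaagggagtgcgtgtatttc
Flt1: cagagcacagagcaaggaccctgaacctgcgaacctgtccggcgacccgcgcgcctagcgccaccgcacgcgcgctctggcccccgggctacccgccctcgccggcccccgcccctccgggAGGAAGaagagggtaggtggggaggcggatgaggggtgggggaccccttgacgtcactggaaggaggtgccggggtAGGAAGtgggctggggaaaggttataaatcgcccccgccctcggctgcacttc
Tie1: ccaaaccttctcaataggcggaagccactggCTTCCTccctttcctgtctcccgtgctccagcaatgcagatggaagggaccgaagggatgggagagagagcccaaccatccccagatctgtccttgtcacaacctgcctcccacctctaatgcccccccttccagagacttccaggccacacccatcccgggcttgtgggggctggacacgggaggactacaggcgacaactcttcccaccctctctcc

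The deposited values are summaries made by the distribution free weighted method (DFW), taken here as log2. The spread of the 14 arrays of a tissue was very small on this scale, with a median SD over all probe sets of 1.08e-05 in liver, 1.41e-05 in WAT and 1.06e-05 in BAT. The summary shrinks differences between arrays, more in some probe sets than in others, and a difference on this scale cannot be read as a fold change. Differences between VAAM and water mice are therefore given in units of the within-group SD of the probe set, with their SE, and the value of each array as its distance from the water mean in the same SD. Limma with Benjamini-Hochberg adjustment over 45037 probe sets called 0 probe sets (0%) in each tissue between VAAM and water mice. At an unadjusted p of 0.05 its counts of higher and lower probe sets were 1878 and 2218 in liver, 744 and 948 in WAT, and 975 and 1321 in BAT. On their principal components, 4 arrays stood apart, namely those of VAAM mouse 6 in liver, VAAM mouse 1 in WAT, and VAAM mice 3 and 5 in BAT.

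Stab2 was the member that marked the liver. Its mean level was 9.04 in liver, 6.69 in WAT and 6.40 in BAT on the log2 scale, in VAAM and in water mice alike. The difference of liver minus WAT was 2.35 and that of liver minus BAT was 2.64, and both lay at percentile 98.6 of the same difference over all probe sets. Lyve1 did not share this order although it marks sinusoids as well. Its mean level was 7.15 in liver of both groups, against 8.96 in WAT and 6.97 in BAT. Liver minus WAT was -1.80 for Lyve1 in VAAM mice, at percentile 2.81 of all probe sets, and BAT minus WAT was -1.99, at percentile 0.699. The second Lyve1 probe set gave -1.26 and -1.40 for the same differences. Mrc1, the mannose receptor of sinusoidal cells and macrophages, was also lower in BAT than in WAT, by a difference of -1.81, and the part of macrophages in the Lyve1 levels was not tested. Of the 2 genes counted as sinusoidal markers, then, Stab2 was highest in liver and Lyve1 was highest in WAT.

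Of the other 8 members all but Tie1 were lower in liver than in WAT, while 37.2% of all probe sets were higher in liver. Emcn had the widest gap among them, with mean levels of 6.96 in liver, 8.75 in WAT and 8.46 in BAT. Flt1 had mean levels of 7.44 in liver, 8.78 in WAT and 8.88 in BAT. Those of Cdh5 were 8.31, 9.46 and 9.61 in the same order of tissues. Emcn, Flt1 and Cdh5 lay at percentiles 2.85, 5.51 and 7.50 of liver minus WAT in VAAM mice, and at percentiles 2.31, 2.57 and 3.12 of liver minus BAT.

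Vwf also differed between the 2 adipose tissues, by less than Lyve1. Its mean level was 6.76 in liver, 8.24 in WAT and 7.02 in BAT, and BAT minus WAT was -1.22, at percentile 3.24 in VAAM mice. Kdr had differences of -0.48, -0.15 and -0.33 for liver minus WAT, liver minus BAT and BAT minus WAT, at percentiles 24.6, 36.8 and 26.9. Tie1 was 0.07 higher in liver than in WAT and 0.33 higher in BAT than in WAT. Pecam1 had mean levels of 6.94 in liver, 7.90 in WAT and 7.87 in BAT. Tek had 8.10, 8.79 and 8.94 in the same order of tissues.

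**Figure D1:**
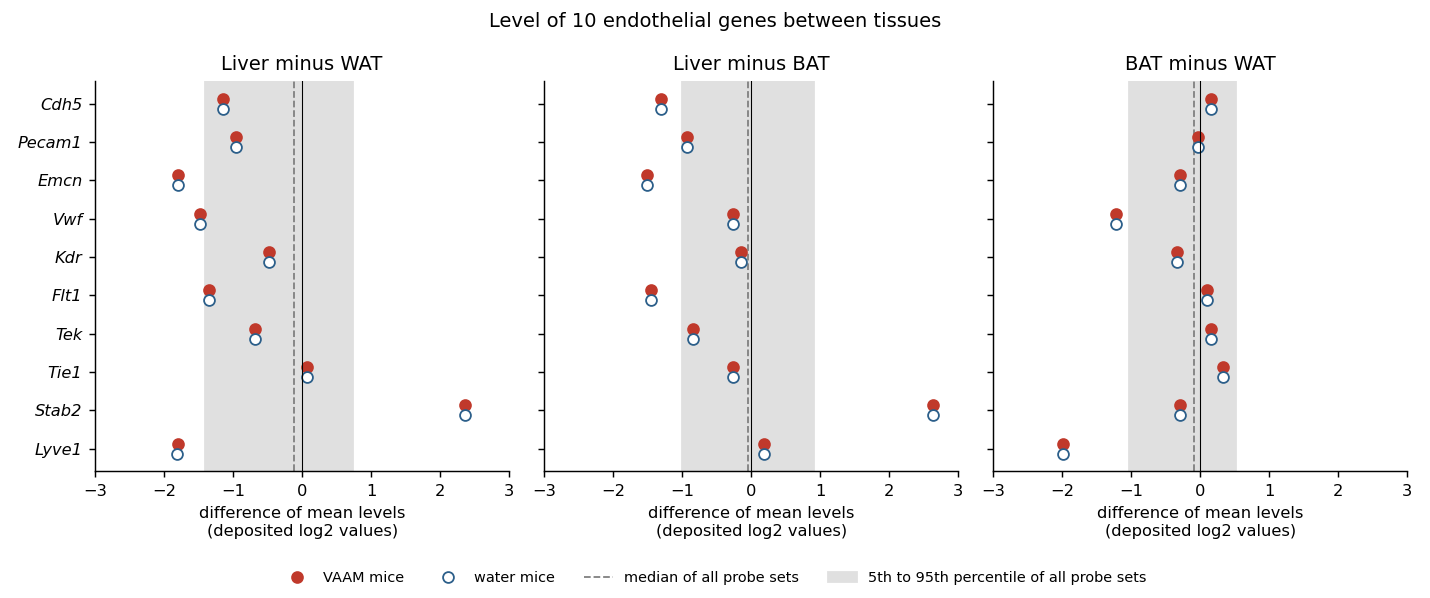
Difference of mean levels (deposited log2 values) between tissues for the 10 genes, in VAAM mice (filled) and water mice (open), with the 5th to 95th percentile of all 45037 probe sets in grey and their median dashed. Stab2 lies right of the grey band at 2.35 and 2.64 in the liver panels, and Lyve1 lies left of it at -1.80 and -1.99 in both panels with WAT.

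These orders held in every array, but they say little of the members alone. All 90 comparisons of a member probe set between 2 tissues gave an exact two-sided permutation p of 0.000583, the smallest that 7 arrays against 7 allow. Limma called 99.8%, 99.9% and 99.8% of all probe sets for liver minus WAT, liver minus BAT and BAT minus WAT, in VAAM and in water mice. The smallest gap, 0.0062 between BAT and WAT for a Flt1 probe set, was still wider than the spread of its groups. It is not stated whether the tissues were summarized together, and the sign of small differences depended on the scaling. The median of all probe sets was -0.12 for liver minus WAT, -0.041 for liver minus BAT and -0.093 for BAT minus WAT in VAAM mice as deposited. Of the 15 member probe sets, 2 were higher in liver than in WAT as deposited, beside 37.2% of all probe sets. The count was 3 after quantile normalization and 4 with array medians centred. For BAT minus WAT, 6 of the 15 were higher as deposited, near the 37% of all probe sets, 10 after quantile normalization and 9 with medians centred.

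Other markers of the same cells were split in the same 2 ways. Of 15 other sinusoidal genes, 12 were higher in liver than in WAT, beside 37.2% of all probe sets, and 9 lay above the 95th percentile. Their median difference was 1.12 in VAAM and in water mice, against -0.12 for all probe sets. Clec4g, a lectin of sinusoidal endothelium, stood highest of them at 4.28, and Rspo3, a Wnt agonist of the central vein, lowest at -0.34. Of 31 other general endothelial genes, 2 were higher in liver than in WAT, beside the same 37.2%, and 29 were lower. Among them 13 lay under the 5th percentile, and the median difference was -1.27. Genes of other cells bore out the labels of the tissues. The hepatocyte genes were higher in liver than in BAT in 6 of 6 cases, beside 44% of all probe sets. Ucp1, the uncoupling protein of brown fat, was 7.86 higher in BAT than in WAT. The 7 skeletal muscle genes were all higher in BAT than in WAT, above the 95th percentile, and 6 of 7 epididymis genes in VAAM mice and 5 of 7 in water mice were under the 5th percentile for liver minus WAT. The part of muscle and epididymis in the differences between tissues was not tested.

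In liver, the means of 9 of the 10 genes were above those of water mice as deposited, but 4 of 10 were after quantile normalization and 4 of 10 with array medians centred. The median over the 10 genes was 0.39 SD, against -0.054 SD over all probe sets. Of the 15 probe sets 12 had a higher mean, beside 46.7% of all probe sets as deposited, and 3 a lower one, beside 53.3%. The higher means were 5 and 4 after quantile normalization and centring, beside 27% and 7.65%. No member passed limma, and the smallest adjusted p among them was 0.371. At an unadjusted p of 0.05, 1 of the 15 was higher and 0 were lower, beside 4.17% and 4.92% of all. In none did the groups separate, beside 0.155% of all probe sets.

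Cdh5 stood farthest out in liver. Its values were 0.52, 1.91 and 3.37 SD (lowest, median and highest) in VAAM mice, against -1.16, 0.10 and 1.61 SD in water mice. All 7 VAAM mice were above the water median, and the groups overlapped in the 2 lowest VAAM mice and the highest water mice. The difference was 1.84 ± 0.65 SD (SE, n = 7 each), with an exact two-sided permutation p of 0.00466 and a limma adjusted p of 0.371. It was 0.23 SD after quantile normalization and 0.46 SD with medians centred, each in the SD of the rescaled values. The second Cdh5 probe set gave 0.24 ± 0.54 SD (SE, n = 7 each), and its deviations followed those of the first with r = 0.29 over 14 arrays. Its mean level in liver was 6.45, below the array medians of 6.73, so it is a weak check on the first.

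Pecam1, the other junction gene, came second in liver. Its values were -0.57, 1.31 and 1.93 SD in VAAM mice, against -1.65, 0.21 and 1.34 SD in water mice. The ranges overlapped over most of their width, and 6 of the 7 values in VAAM mice exceeded the median in water mice. The difference was 1.09 ± 0.58 SD (SE, n = 7 each; exact permutation p = 0.0676, limma adjusted p = 0.563), and it was 0.81 SD after quantile normalization and 0.39 SD with medians centred. Tie1 followed with 0.77 ± 0.56 SD, but -0.83 SD after quantile normalization and -0.22 SD with medians centred.

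Both sinusoidal genes overlapped in liver. Stab2 had -1.04, 0.68 and 2.24 SD in VAAM mice, against -0.88, 0.03 and 0.65 SD in water mice. The VAAM mice were the more spread, with 3 below and 4 above the highest water mouse. The difference was 0.46 ± 0.54 SD (SE, n = 7 each), and -0.44 SD after quantile normalization. Lyve1 had -0.98, 0.48 and 1.64 SD in VAAM mice, against -1.19, 0.13 and 1.5 SD in water mice, and a difference of 0.27 ± 0.54 SD (SE, n = 7 each). Its spread between livers was unusual for this table, with a within-group SD of 0.0088 on the log2 scale, at percentile 99.5 of all probe sets, while Stab2 was at percentile 94.3. The second Lyve1 probe set followed the first over the livers with r = 0.89 and differed by -0.016 ± 0.53 SD between the groups.

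The VEGF receptors and the remaining members lay within 0.5 SD in liver. Kdr differed by -0.095 ± 0.53 SD and Flt1 by 0.23 ± 0.54 SD. The other 3 Flt1 probe sets gave 0.33, 0.32 and -0.29 SD. Tek differed by 0.33 ± 0.54 SD, Emcn by 0.24 ± 0.54 SD and Vwf by 0.49 ± 0.54 SD (SE, n = 7 each). For each of these genes, differences of 0.5 SD either way lay within 2 SE of the estimate. The liver of VAAM mouse 4 held the highest value of 5 of the 10 genes, and leaving it out took Emcn to -0.0051 SD and Flt1 to -0.038 SD.

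**Figure D2:**
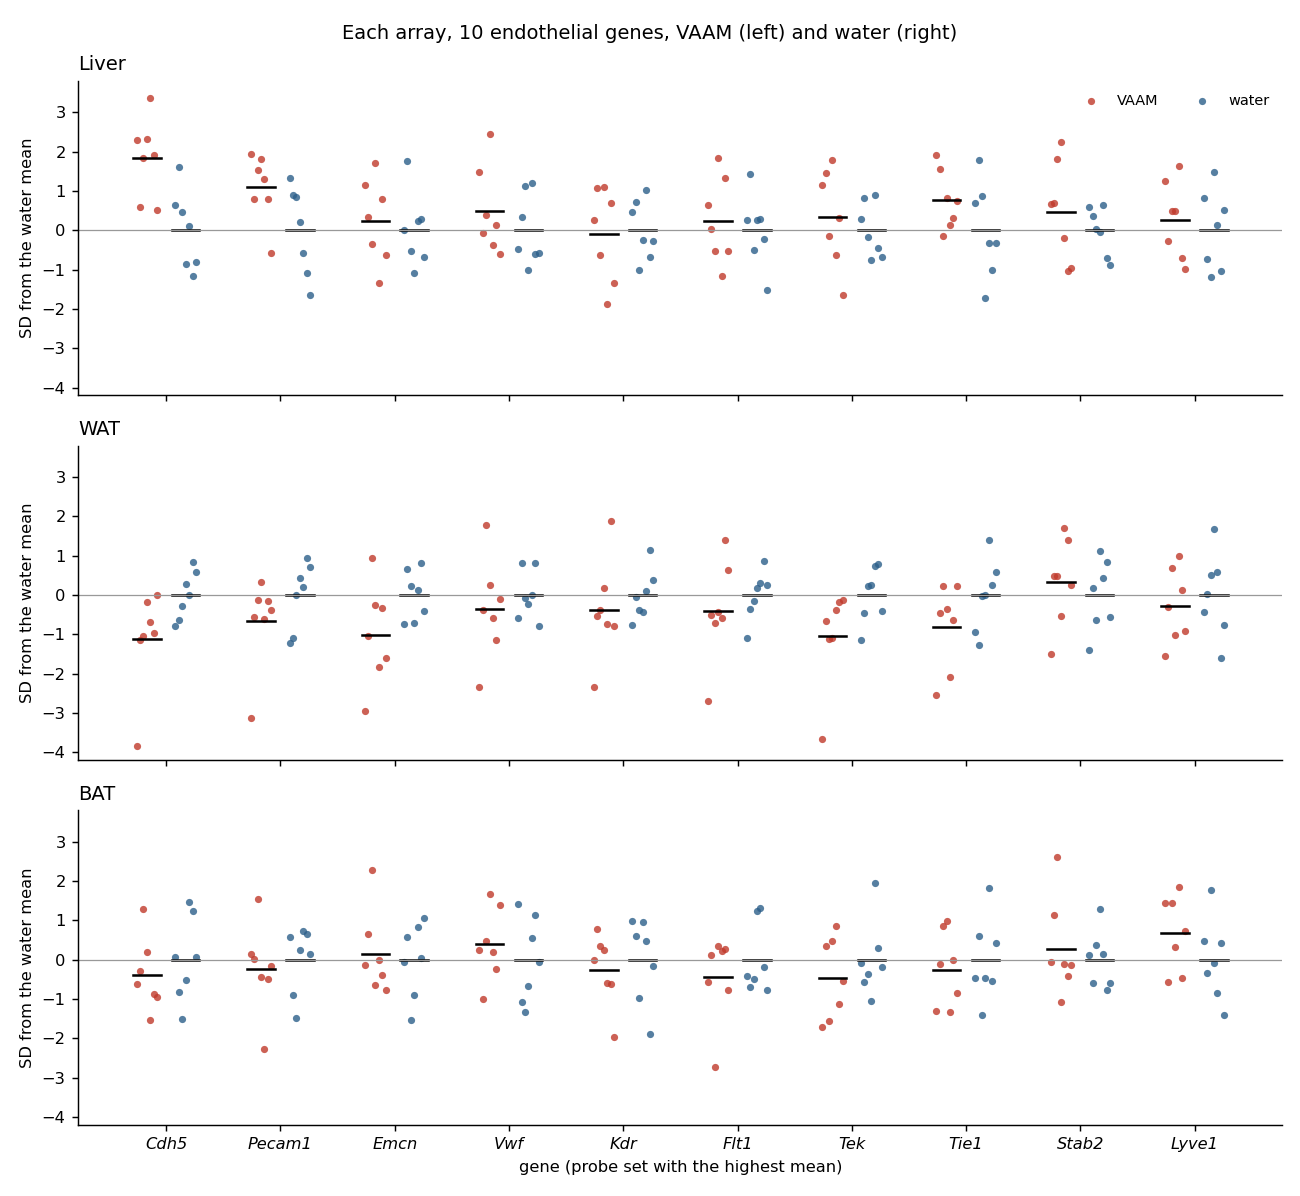
Value of each array in SD from the water mean, for the probe set with the highest mean of each gene, with VAAM in red on the left, water in blue on the right and bars at the group means (n = 7 each). In WAT the lowest point of 9 of the 10 genes is the array of VAAM mouse 1, and in liver 7 of 7 VAAM points of Cdh5 are above the water median.

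Genes of other cell types in liver gave no call either. They were counted on values as deposited only, where 47.6% of all genes had higher means in VAAM mice. The 9 macrophage and Kupffer cell genes all had higher means in VAAM mice, with a median of 0.46 SD and mean scores between -0.78 and 2.40 SD in VAAM mice, against -1.04 to 1.07 SD in water mice. None of the 9 passed limma or an unadjusted p of 0.05. The median was 0.54 SD over 6 stellate cell and fibroblast genes and 0.034 SD over 6 hepatocyte genes. Their part in the values of Cdh5 and Pecam1 was not tested.

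In liver 9 of the 10 means were higher as deposited. After quantile normalization and with medians centred 6 of 10 were lower, beside 73% and 92.4% of all probe sets. In WAT 9 of the 10 means were below those of water mice, the opposite of the liver as deposited. The median over the 10 genes was -0.54 SD as deposited, -0.38 SD after quantile normalization and -0.60 SD with medians centred, and all 10 means were lower under these scalings. Of the 15 probe sets 14 had a lower mean and 1 a higher one, beside 50.6% and 49.4% of all as deposited, while all 15 did beside 95.9% after quantile normalization and 97.8% with medians centred. No member passed limma or its unadjusted p of 0.05, beside 1.65% of all probe sets higher and 2.1% lower, and the smallest unadjusted p was 0.0511 for Cdh5. The count of members lower at that unadjusted p was 4 with the array number as a block, 5 in 1 fit over 42 arrays, 2 with array weights and 1 without the array that stood apart, where 1472, 1797, 1253 and 854 of all probe sets were lower. All adjusted p were 0.9998, and no member had groups that did not overlap, beside 0.0488% of all.

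Cdh5 was again the gene farthest out, here on the low side. Its values were -3.84, -0.97 and -0.010 SD in VAAM mice, against -0.79, 0.0074 and 0.84 SD in water mice. None of the VAAM mice was above the water median. The difference was -1.13 ± 0.58 SD (SE, n = 7 each), with an exact permutation p of 0.0262, and it was -0.37 SD after quantile normalization and -0.80 SD with medians centred. The second probe set of Cdh5 gave -0.88 ± 0.56 SD and followed the first with r = 0.91 over the 14 WAT arrays.

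Tek had -3.66, -0.65 and -0.12 SD in VAAM mice, against -1.14, 0.22 and 0.80 SD in water mice. No VAAM mouse was above the water median, while 6 of them stayed above the lowest water mouse. The difference was -1.03 ± 0.57 SD (SE, n = 7 each; exact permutation p = 0.0530). Emcn had -2.94, -1.05 and 0.94 SD in VAAM mice, against -0.73, 0.12 and 0.82 SD in water mice, which gave -1.01 ± 0.57 SD (exact permutation p = 0.0822, n = 7 each). Its VAAM mice held both the lowest and the highest value of the tissue. Tie1 differed by -0.80 ± 0.56 SD and Pecam1 by -0.66 ± 0.55 SD.

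The receptors of VEGF and the storage protein Vwf were closer to 0. Flt1 differed by -0.41 ± 0.54 SD, Kdr by -0.39 ± 0.54 SD and Vwf by -0.36 ± 0.54 SD (SE, n = 7 each). Stab2 was the exception in sign with 0.32 ± 0.54 SD as deposited, but -0.74 SD after quantile normalization and -0.59 SD with medians centred. Its mean level in WAT was 6.69, below the array medians of about 6.91. Lyve1 differed by -0.28 ± 0.54 SD, with values of -1.55, -0.30 and 0.99 SD in VAAM mice, against -1.60, 0.033 and 1.68 SD in water mice.

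In WAT 1 array lay far below the others. The array of VAAM mouse 1 held the lowest value of 9 of the 10 genes, with a median of -2.63 SD over them. The mean over the 8 genes other than Stab2 and Lyve1 was -2.94 SD there, between -0.94 and -0.017 SD on the other 6 VAAM arrays, and between -0.91 and 0.82 SD on the 7 water arrays. On the same array the mean over 7 epididymis genes was 2.56 SD, against -0.29 to 0.78 SD on the other VAAM arrays and -0.59 to 1.61 SD on water arrays. The mean over 5 adipocyte genes was -2.82 SD there, against -0.92 to 0.65 SD on water arrays. Lcn5, an epididymal lipocalin, had the highest difference of its list at 2.16 ± 0.69 SD (exact permutation p = 0.00175, n = 7 each; limma adjusted p 0.9998). This was not a feature of VAAM mouse 1 alone, since 7 of 7 VAAM arrays were above the water median of Lcn5. Its liver minus WAT was -5.23 in VAAM mice and 0.21 in water mice. The mean over the 7 epididymis genes differed by 0.43 SD between the WAT groups, and by 0.074 SD without VAAM mouse 1. The part of epididymal tissue in the endothelial values was not tested.

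**Figure D3:**
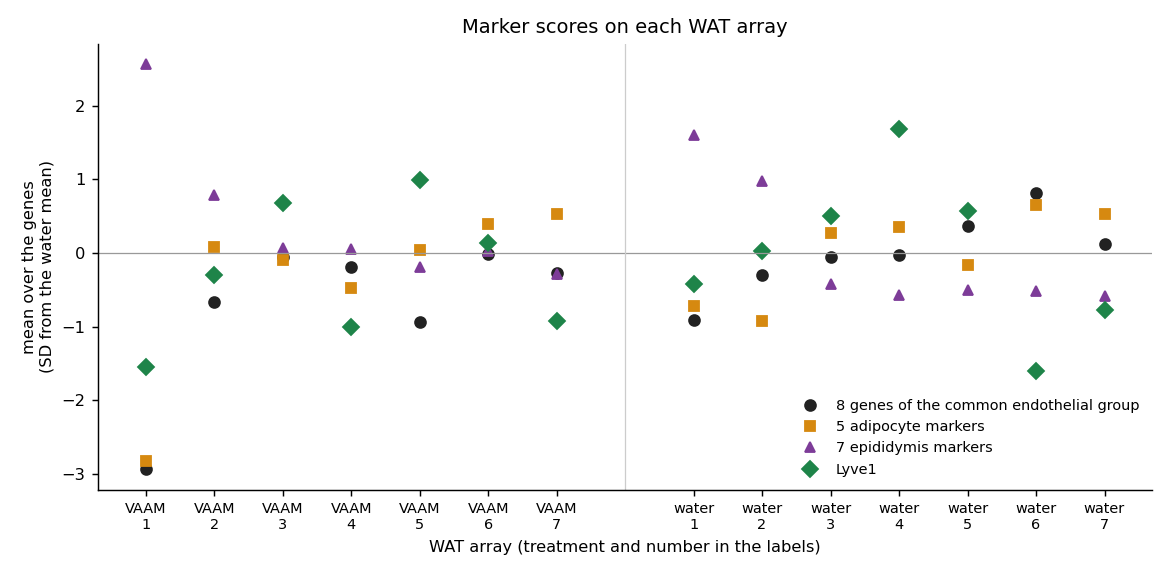
Mean score on each WAT array, in SD from the water mean, over the 8 endothelial genes other than Stab2 and Lyve1, 5 adipocyte genes and 7 epididymis genes, and the value of Lyve1, with the 7 VAAM arrays on the left and the 7 water arrays on the right. VAAM 1 has the lowest endothelial and adipocyte scores, -2.94 and -2.82 SD, and the highest epididymis score, 2.56 SD.

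Without that array the difference of the mean over the 8 genes was -0.36 SD, where it was -0.72 SD with it. The means of 9 of the 10 genes were still lower, with a median of -0.22 SD. For Cdh5 the difference was -1.22 SD and for Tek -0.99 SD, each in units of the SD of the 13 remaining arrays. Emcn was at -0.83 SD, and the others that had been lower lay between -0.59 and -0.037 SD. Those closest to 0 were Lyve1 and Kdr at -0.074 and -0.077 SD, Flt1 at -0.044 SD and Vwf at -0.037 SD.

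In BAT the members showed no common direction. Of the 10 means 4 were above and 6 below those of water mice, with a median of -0.24 SD against -0.019 SD over all probe sets. Of the 15 probe sets 7 were higher and 8 lower, beside 48.6% and 51.4% of all as deposited, 3 were after quantile normalization, beside 11.8%, and 8 with medians centred, beside 80.2%. No member passed limma or an unadjusted p of 0.05, beside 2.16% of all higher and 2.93% lower, and the smallest adjusted p was 0.955. No member had separate groups, beside 0.0955% of all.

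Lyve1 had the widest difference in BAT. Its values were -0.57, 0.74 and 1.84 SD in VAAM mice, against -1.41, -0.083 and 1.78 SD in water mice. The groups overlapped over most of their range. The difference was 0.68 ± 0.55 SD (SE, n = 7 each; exact permutation p = 0.226), 0.10 SD after quantile normalization and 0.30 SD without the 2 arrays that stood apart. Of 6 other lymphatic genes all 6 had higher means in VAAM mice as deposited, beside 51.8% of all genes. Their median was 0.47 SD, and none passed limma or an unadjusted p of 0.05. Lists of other cells were as uniform: 6 of 6 stellate cell and fibroblast genes and 7 of 7 skeletal muscle genes were higher, and 3 of 3 B cell genes were lower. Pdpn, podoplanin of lymphatic vessels, led them with 1.05 ± 0.58 SD.

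The remaining genes lay between -0.46 and 0.39 SD in BAT. Tek differed by -0.46 ± 0.54 SD, Flt1 by -0.45 ± 0.54 SD and Vwf by 0.39 ± 0.54 SD (SE, n = 7 each). The Flt1 value rested on 1 array, since VAAM mouse 3 was at -2.73 SD and the other 6 between -0.76 and 0.35 SD. Without that array the difference of Flt1 was -0.088 SD. The other Flt1 probe sets gave 0.27, 0.23 and -0.51 SD, so that the 4 probe sets of this gene did not share a sign. Emcn was at 0.14 SD with all arrays and at -0.31 SD without the 2 arrays that stood apart, and Stab2 likewise at 0.29 SD and at -0.13 SD. Emcn and Stab2 were also below 0 after quantile normalization, at -0.50 and -0.30 SD. The mean level of Stab2 in BAT was 6.40, below the array medians of 6.77 to 6.78.

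**Figure D4:**
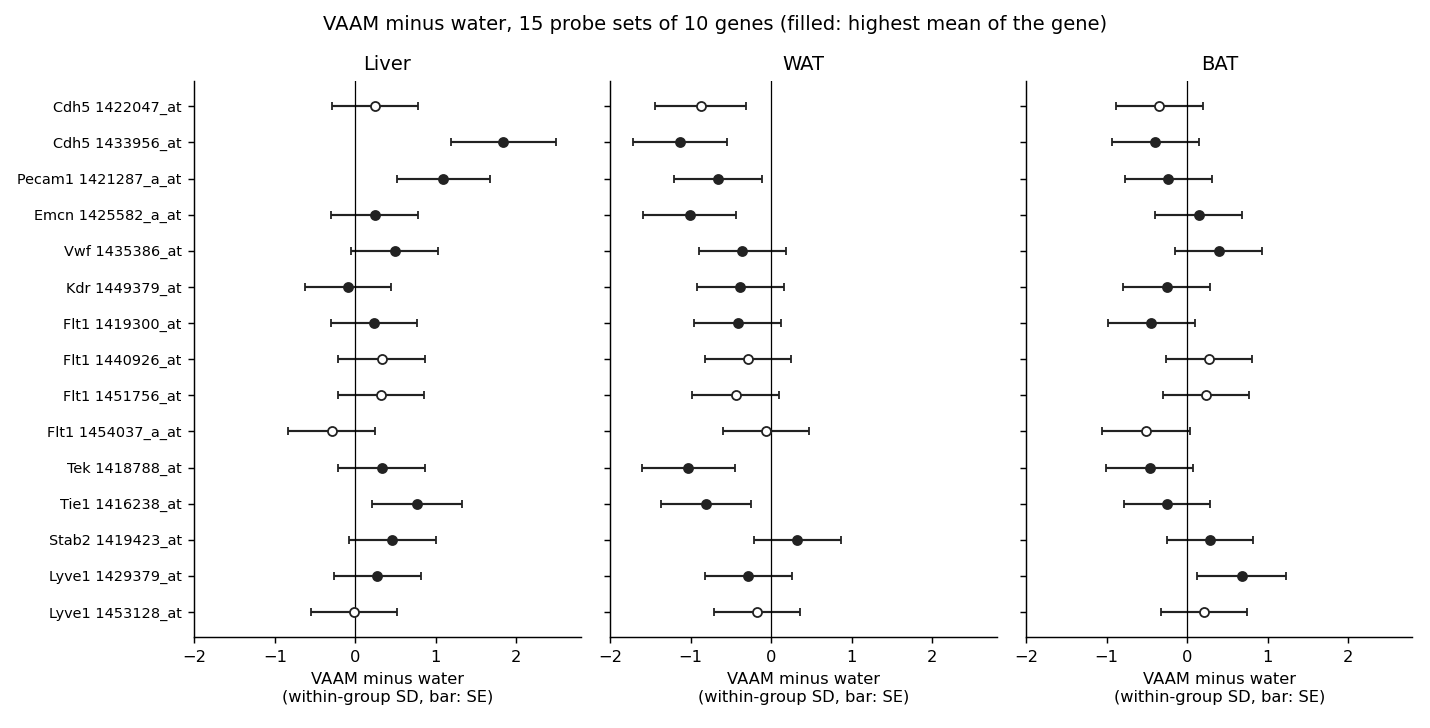
VAAM minus water in within-group SD for the 15 probe sets in liver, WAT and BAT, with bars of 1 SE (n = 7 each) and filled points for the probe set with the highest mean of each gene. On values as deposited, points are mostly right of 0 in liver (12 of 15) and left of it in WAT (14 of 15). In BAT they are on both sides (7 of 15 right). Of all probe sets, 46.7%, 49.4% and 48.6% are right of 0 in liver, WAT and BAT. The liver count is 5 of 15 after quantile normalization, beside 27% of all, and 4 of 15 with medians centred, beside 7.65%.

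Whether VAAM minus water differed between tissues was tested on values in within-group SD. This scaling gives every probe set the same residual variance, so moderation takes each SD as known although it was estimated from these arrays. The moderated p-values are therefore too small, and the shares of probe sets called with them too large. For Cdh5 the liver difference exceeded that of WAT by 2.97 SD (limma adjusted p 0.0417), and it was the 1 member of 15 to pass, beside 0.249% of all probe sets. The same contrast had an adjusted p of 0.303 when the variance was not moderated across probe sets, where 0 of 45037 passed with 3846 at an unadjusted p of 0.05. It was 0.60 SD after quantile normalization and 1.26 SD with medians centred, with adjusted p of 1 and 0.99999. These fits take the arrays of the tissues as independent, while a mouse gave all 3 tissues and the labels do not say that a number is 1 mouse. With same-numbered arrays of a treatment taken as 1 mouse, the adjusted p was 0.0408, and 0.373 when the variance was not moderated. Without the arrays that stood apart it was 2.97 SD with an adjusted p of 0.0459. Left out in turn, 14 of 28 arrays ended the call, and the adjusted p ranged between 0.00556 and 0.0925. The second Cdh5 probe set gave 1.12 SD (adjusted p 0.66), and Pecam1 gave 1.75 SD (adjusted p 0.371). Between liver and BAT and between BAT and WAT 0 members passed, beside 0.153% and 0.02% of all probe sets, with 1 and 0 members at an unadjusted p of 0.05.

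The rank products method, which the study used, was run as an alternative. It called 1 member higher in VAAM mice in liver, Lyve1 with a false discovery rate of 0.00129, beside 2.71% of all probe sets. In WAT it called 3 lower, Cdh5, Tek and Vwf, with false discovery rates of 0.00926, 0.0034 and 0.00824, beside 1.46% of all lower. It called 0 members lower in liver and 0 higher in WAT, beside 1.46% and 1.98%. In BAT it called 0, beside 2.16% higher and 2.26% lower. The called probe sets had a wide spread for their tissue, at percentiles 93.1 to 99.5 of the within-group SD. On values scaled to unit SD no member was called, beside 0.493% of all higher and 0.344% lower in liver, 0.0777% and 0.0822% in WAT, and 0.211% and 0.0999% in BAT. For the 4 above, the false discovery rates were between 0.80 and 1.

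The members varied together from mouse to mouse within a group. Over the 28 pairs of the 8 genes other than Stab2 and Lyve1, the median correlation of deviations from the group means was 0.47 in liver, 0.63 in WAT and 0.22 in BAT, over 14 arrays that share their tissue, platform and summary. All 28 pairs were above 0 in liver and in WAT, and 21 of 28 were in BAT. Without the arrays that stood apart the medians were 0.52, 0.36 and 0.38, with 28, 23 and 26 pairs above 0. In WAT genes of other cells followed the mean of the members as well. The median r toward it was 0.84 over 5 adipocyte genes and 0.77 over 31 other endothelial genes. It was -0.82 over 7 epididymis genes and 0.14 over all genes. Over these 14 arrays, with that of VAAM mouse 1 among them, the common variation in WAT was thus not particular to endothelial genes. The r toward each list was not computed without the arrays that stood apart. In liver the median was 0.41 over the other endothelial genes, 0.27 over adipocyte genes and 0.051 over all genes. In BAT it was 0.49, -0.35 and -0.067. Lists of other cells reached similar values. In liver their medians ranged from -0.16 over 9 macrophage and Kupffer cell genes to 0.49 over 3 B cell genes. In BAT they ranged from -0.39 over 7 skeletal muscle genes to 0.48 over 7 pericyte and smooth muscle genes. All these values are a description and carry no test.

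In liver Tek and Kdr followed each other most closely, with r = 0.86, while Cdh5 and Kdr had r = 0.049. In WAT Cdh5 and Pecam1 had r = 0.92, the highest pair of that tissue, and Flt1 and Vwf the lowest with 0.30. In BAT the same pair was highest, with r = 0.83, while Flt1 and Emcn had r = -0.49, which was -0.035 without the arrays that stood apart. The probe sets of 1 gene did not always follow each other either. The 2 Cdh5 probe sets had r = 0.91 in WAT and 0.0070 in BAT, and a pair of the dimmer Flt1 probe sets had 0.96 in WAT and 0.19 in liver. The second Cdh5 probe set had mean levels of 6.58 in WAT and 6.67 in BAT, below the array medians of both tissues. The Flt1 probe set with the highest mean and one of these had r = -0.44 in liver.

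Stab2 and Lyve1 behaved differently toward the rest. The mean of the 8 genes followed Stab2 with r = 0.61 in liver and 0.62 in WAT, and with 0.13 in BAT. Toward Lyve1 it had r = -0.030 in liver, 0.19 in WAT and -0.50 in BAT. Without the arrays that stood apart, the value for Stab2 was 0.73 in liver, 0.35 in WAT and -0.082 in BAT, and that for Lyve1 was -0.0090, -0.28 and -0.60. The mean levels of Stab2 in WAT and BAT, 6.69 and 6.40, were below the array medians of these tissues.

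**Figure D5:**
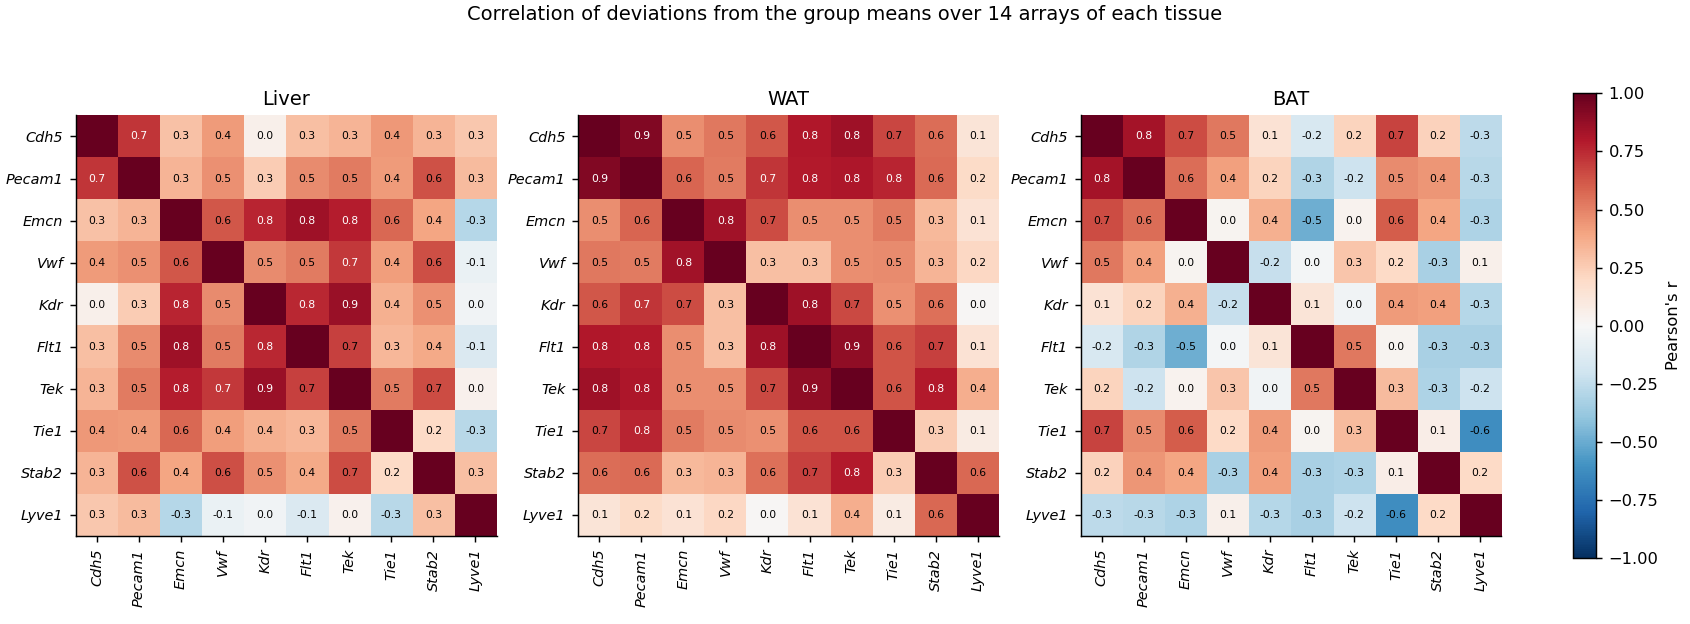
Pearson's r between the 10 genes over 14 arrays of liver, WAT and BAT, on deviations from the group means, with red above 0 and blue below. All pairs of the first 8 genes are above 0 in liver and WAT, 21 of 28 are in BAT, and the row of Lyve1 lies between -0.29 and 0.32 in liver and between 0.014 and 0.57 in WAT, where Stab2 is its highest partner.

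The genes whose deviations followed the mean of the 10 members most closely differed between tissues. In liver they were Rhou (r = 0.95), Mrpl28 (0.92), Ptprb (0.91), Atg101 (0.91) and Zkscan8 (0.90). Ptprb is the endothelial phosphatase that acts on Tek and on VE-cadherin. In WAT they were She (0.99), Lrch1 (0.96), Nrp2 (0.96), Arhgef6 (0.96) and Smoc1 (0.96), of which Nrp2 is a co-receptor of VEGF. In BAT they were Akr1c13 (0.93), Spata13 (0.86), Tmem88 (0.84), Tcf4 (0.84) and Adgrl2 (0.83). Each r is over 14 arrays and was picked as the highest of 18193 genes, and without the arrays that stood apart the 15 values lay between 0.80 and 0.96.

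The genes around the members in their pathway gave no call. Their counts are on values as deposited and were not made under the other scalings. Of all genes, 47.6% had higher means in VAAM mice in liver, 50.3% in WAT and 51.8% in BAT. Of 10 genes that act with the receptors, 8 had higher means in VAAM mice in liver, 2 in WAT and 7 in BAT, and 0 passed limma. Of 8 angiogenic ligands, 7 had higher means in liver, 3 in WAT and 5 in BAT, and 0 passed. Vegfd, a lymphatic growth factor, stood highest in liver with 1.26 ± 0.59 SD, and Angpt4, a ligand of Tek, lowest with -1.47 ± 0.61 SD (SE, n = 7 each). Of the 31 other endothelial genes, 24 had higher means in liver, 2 in WAT and 15 in BAT, and their medians were 0.43, -0.47 and -0.029 SD. The mean over the 31 genes differed by -0.52 SD in WAT, and by -0.19 SD without the array of VAAM mouse 1, which was at -2.52 SD. In WAT their lowest was Cd34, a sialomucin of endothelium and progenitors, with -1.39 ± 0.61 SD. Over the 15 other sinusoidal genes the medians were 0.42 SD in liver, -0.12 SD in WAT and 0.077 SD in BAT, and Dnase1l3, a secreted endonuclease, led in liver with 1.27 ± 0.59 SD. At an unadjusted p of 0.05, 1 of the 31 endothelial genes was higher in liver, beside 4.17% of all probe sets, and 4 were lower in WAT, beside 2.1%. Of the 8 ligands, 2 were higher in liver and 1 was lower at that p, beside 4.17% and 4.92%.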

How the data were processed

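RNA of whole liver, WAT and BAT was hybridised to 42 Affymetrix mouse expression arrays, 7 for each tissue and treatment. Arrays of mice given an amino acid mixture modelled on casein were not analysed here. The authors summarized the arrays with DFW in R (R 2.7.2 in the submitters' processing notes), and the deposited values, whose log base is not stated, were taken as log2. The sources do not say whether the tissues were summarized together. DFW shrinks differences between arrays unequally, and the precision rests on the number of arrays. Of 45101 probe sets, 64 controls were left out and 45037 were tested; GEO's platform annotation names 1 gene for 34945 of them, several for 932 and none for 9160.

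Limma 3.58.1 (R 4.3.3) set VAAM against water mice tissue by tissue, with p-values adjusted over 45037 probe sets by Benjamini-Hochberg at 0.05, and for each member with the two-sided exact permutation test over 3432 splits. Differences were divided by the within-group SD, which was taken from the rescaled values after quantile normalization or centring. Tissues were compared within VAAM mice and within water mice, and VAAM minus water between tissues by an interaction term. Arrays past 2.2 SD on 1 of the first 3 principal components were taken to stand apart. Rank products used 49 pairs of arrays and 50 permutations. Sequences came from RefSeq promoters of GRCm38.p6. Python 3.11.15 was used for the rest.

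All members are named. Of each further list, the text names at most the gene with the highest and the gene with the lowest value, and of the correlated genes the first 5 in each tissue. The members and lists were chosen with earlier results of these data known. The alternatives were quantile normalization, centring on array medians, array weights, a trend and robust prior, the mean over the probe sets of a gene, probe sets above the median only, 1 fit over 42 arrays, the array number as a block, rank products, and leaving out each array or those that stand apart.

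The labels number the arrays of each group 1 to 7 without saying that a number is 1 mouse, and nothing says that p-values measure more than the spread between these samples. Deviations of VAAM and water arrays with the same number correlated between -0.13 and 0.14 in liver, -0.079 and 0.48 in WAT, and -0.19 and 0.17 in BAT, so the numbers were not taken as pairs. Between tissues, same-numbered arrays of a treatment correlated between -0.036 and 0.30, and over 0.1 in 1 to 6 of 7 numbers for each treatment and pair of tissues, so a fit with the number as a block was added after seeing the data.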

Additional observations from a re-analysis of the deposited data

Results flagged for a closer look

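In 4 of 60 groups of 7 arrays, 1 array lay farther from the rest than Dixon's critical value allows, where chance gives about 1 in 20 groups. In 3 of them it was the WAT array of VAAM mouse 1. The gap to the nearest array took 0.702 of the range for Cdh5 (-3.84 SD there, and -1.15 SD on the next), 0.716 for Tek (-3.66 and -1.13 SD) and 0.727 for Pecam1 (-3.12 and -0.61 SD). In the fourth, Flt1 in BAT, the gap took 0.641 of the range, with VAAM mouse 3 at -2.73 SD and the next array at -0.76 SD.

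For Cdh5, VAAM minus water differed between liver and WAT by 2.97 SD, with a limma adjusted p of 0.0417 for the interaction. That p is too small, since on values scaled to SD the moderation takes each SD as known. The adjusted p was 0.303 without moderation of the variance. With moderation, leaving out 1 array at a time gave 0.00556 to 0.0925.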

How the results depend on the processing

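Of 667 differences of single genes between VAAM and water mice under an alternative, 633 kept their sign, 34 changed it (14 of them among 420 that leave out 1 array), and 0 passed the limma threshold. The cause was not tested for any change. As deposited, 53.3% of all probe sets had lower means in VAAM mice in liver, 50.6% in WAT and 51.4% in BAT. These shares were 73%, 95.9% and 88.2% after quantile normalization, and 92.4%, 97.8% and 19.8% with medians centred. The scaling thus moved most probe sets of a tissue and not the members alone. After quantile normalization the differences of opposite sign were, in liver, Tek -0.29, Tie1 -0.83, Kdr 0.015, Flt1 -1.11, Emcn -0.11, Vwf -0.23 and Stab2 -0.44 SD, in WAT Stab2 -0.74 SD, and in BAT Emcn -0.50 and Stab2 -0.30 SD. With array medians centred they were, in liver, Tek -0.22, Tie1 -0.22, Flt1 -0.36, Emcn -0.31 and Vwf -0.23 SD, and in WAT Stab2 -0.59 SD. With array weights they were Vwf in WAT, 0.016 SD, and Emcn in BAT, -0.11 SD. Without the BAT arrays that stood apart they were Emcn, -0.31 SD, and Stab2, -0.13 SD. Leaving out 1 array gave ranges across 0 in liver for Kdr (-0.31 to 0.23 SD), Flt1 (-0.038 to 0.51 SD) and Emcn (-0.0051 to 0.61 SD), and in BAT for Tie1 (-0.52 to 0.059 SD), Kdr (-0.68 to 0.038 SD), Pecam1 (-0.61 to 0.13 SD), Emcn (-0.28 to 0.32 SD) and Stab2 (-0.14 to 0.54 SD).

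Over all probe sets, limma's 0 calls became 691 in liver, 129 in WAT and 315 in BAT in 1 fit over 42 arrays, with 0 members in each. In liver 1 probe set passed after quantile normalization, and 0 to 5 passed when 1 array was left out. Rank products called 1879, 1548 and 1991 probe sets in liver, WAT and BAT, among them 1, 3 and 0 members, and 377, 72 and 140 on values scaled to unit SD, with 0 members. Between tissues, 4 members were higher in liver than in WAT with medians centred, against 2 as deposited, and 10 were higher in BAT than in WAT after quantile normalization, against 6, in VAAM and in water mice. As deposited, 37.2% of all probe sets were higher in liver than in WAT and 37% in BAT than in WAT. The difference between liver and WAT was called for 1 member as fitted, for 0 without moderation, after quantile normalization or with medians centred, and for 0 to 1 when 1 array was left out.

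With the array number as a block, 1 probe set of all passed in liver and 0 in WAT and BAT, and the block changed no adjusted call of a member. For the difference between liver and WAT the block, added after seeing the data, kept the 1 call, and with no moderation beside the block 0 were called.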
